A study of Triticum polonicum with 10 samples.

Results

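Dwarf Polish wheat (Triticum polonicum) is a tetraploid that carries the A and B subgenomes of wheat, and the D subgenome is known from hexaploid bread wheat and its goatgrass donor. The roots' counts were nevertheless listed against gene IDs of bread wheat, which name a chromosome, a subgenome letter and an order number. Of the 274924 IDs in the count table, 35021 carry the letter D and lack the LC suffix that marks low-confidence gene models, and 210 of these had a mean CPM (counts scaled to a common library total) of at least 10 over all 10 libraries. These 210 D IDs are described here. The mean chose them, so their level is a description and no test was made of it. No gene names accompany the IDs, so no function is given for any of them and markers of root tissue could not be checked.

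Each wheat gene commonly has a counterpart at a similar place on the matching chromosome of the other subgenomes, called a homoeologue. The coding sequences of homoeologues are often nearly identical, and a short read can match several of them. The handling of reads that match several genes is unstated in the labels and files. Gene counts do not show whether a read under a D ID came from D-subgenome sequence, and this was not tested.

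The roots of seedlings 4 weeks old were sampled after 1 week of treatment, with 1 library per treatment. The 10 treatments were no addition (the control), 80 µM CdCl2 alone, FeCl3 at 50 or 200 µM each without and with 80 µM CdCl2, and 4 supplies of Fe2(SO4)3. The design mentions 3 biological replicates, and the labels do not say whether each library pools them. Of the Fe2(SO4)3 libraries, 1 has a title code and a treatment text that match, 200 µM without cadmium. The other 3 have a code and a text that differ (coded B50CK and described as 200 µM with cadmium, coded B50Cd and described as 50 µM without cadmium, coded B200Cd and described as 50 µM with cadmium). They are named by their codes and enter the cadmium comparison only where both readings are given.

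Library totals ran from 13635628 to 19320820 counts. The control stood farthest from the rest: the standard deviation (SD) of log2 ratios over the 210 D IDs averaged 1.35 for pairs with the control, and 0.84 to 1.07 for pairs with any one of the others. Over all 17308 IDs of at least 10 CPM the values were 1.22 and 0.79 to 0.94. Most of the edgeR calls and counts of 2-fold differences that rest on the control are therefore also given without it. The DESeq2 calls and the calls from all 10 libraries are given with the control only. In bulk roots, fewer cells of a type and less RNA per cell cannot be told apart.

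D IDs were rarely well counted. At least 10 CPM was reached by 0.600% of the listed D IDs without LC, against 21.1% of the A IDs and 20.6% of the B IDs. A count in at least 1 library was far more common, at 40.5% of D IDs against 74.9% for A and 75.1% for B, so most counted D IDs held few counts. All D IDs without LC held 1.06% to 1.17% of the counts of a library. The 210 well-counted ones took 50.3% to 56.0% of that, and 13986 other D IDs with a count shared the remainder. Among D IDs with LC, 15 of 44103 reached 10 CPM. Just inside the limit were TraesCS1D01G284200 (mean 10.03 CPM, range 2.42 to 24.0) and TraesCS6D01G300700 (10.01 CPM, 5.50 to 17.8). Just outside it were TraesCS4D01G326400 (9.98 CPM, 3.57 to 29.4) and TraesCS1D01G404800 (9.95 CPM, 1.82 to 20.7).

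The well-counted D IDs were unevenly spread over the chromosomes. Chromosome 5D held 46 of them, 2D held 43, 7D held 42, 1D held 31, 3D held 22, 6D held 19 and 4D held 7. Per 1000 listed IDs this was 8.07 on 5D, 7.56 on 7D, 7.15 on 2D, 6.81 on 1D, 4.66 on 6D, 4.03 on 3D and 1.91 on 4D. The low number on 4D was not matched by few counted IDs, since 45.7% of its IDs had a count in some library, the highest share of any D chromosome (37.2% to 43.4% on the others). In counts, 2D led with 26.6% of the summed mean CPM of the 210, followed by 5D (19.5%), 7D (18.6%), 3D (13.1%), 1D (12.8%), 6D (7.10%) and 4D (2.34%).

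**Figure D1:**
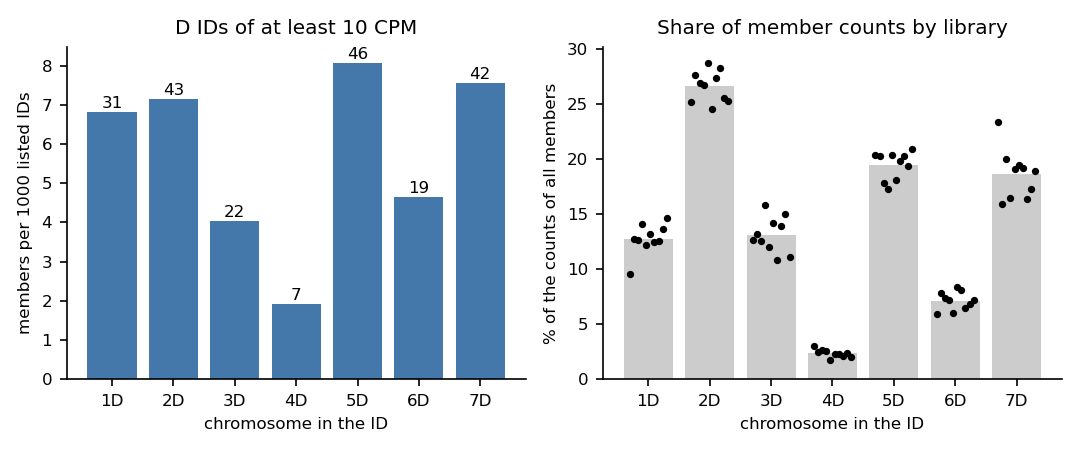
Left, number of D IDs of at least 10 CPM per 1000 listed D IDs on each chromosome, with the number itself above each bar. Right, each chromosome's percentage of the counts of these 210 IDs, with 1 point per library and the mean of 10 libraries as a bar; 2D had the largest share and 4D the smallest in every library.

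The share of each chromosome moved little between libraries. Chromosome 2D held 24.5% to 28.7% of the counts of the 210 IDs and 4D held 1.74% to 3.00%. The widest ranges were on 7D and 1D and both came from the control. There 7D held 23.3%, against 15.9% to 20.04% in the other libraries, and 1D held 9.50%, against 12.1% to 14.7%. With the ID numbers of each chromosome cut in 3 equal parts, 72 of the 210 lay in the first part, 55 in the middle and 83 in the last. The middle part thus held 26.2% of them, against 40.1% of the A IDs and 41.8% of the B IDs of at least 10 CPM. On 5D the order differed, with 5 in the first, 22 in the middle and 19 in the last part. In 7 cases both IDs of a neighbouring pair were among the 210, which took in 14 IDs. The most counted such pairs were TraesCS2D01G080800 and TraesCS2D01G080900 (means of 14.8 and 152 CPM), TraesCS1D01G378000 and TraesCS1D01G378100 (73.3 and 49.0 CPM), and TraesCS2D01G583100 and TraesCS2D01G583200 (48.6 and 30.9 CPM). Their levels over the 10 libraries had r = 0.0672, 0.8 and 0.862 on the log2 scale, so the first pair did not run in parallel while the other two did. In the remaining 4 pairs r was -0.29, -0.22, 0.19 and 0.716.

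Counts were concentrated in few of the 210, though a broad tail followed. The 10 most counted took 22.4% of the summed mean CPM and 43 IDs (20.5%) made up 50% of it. Among A and B IDs of at least 10 CPM, 10.4% and 11.5% of the IDs made up the same part, so the D IDs were the more evenly filled set. They also lay lower, with a median of 17.9 CPM against 25.04 (A) and 25.3 (B), and with 56.7% of them under 20 CPM against 39.6% and 39.3%. A mean of 100 CPM was passed by 6 of the 210 D IDs (2.86%), against 11.6% and 10.6% of the A and B IDs. The rule's own limit cut all 3 sets at the same level. Their lengths were alike, with a median of 1240 bp for D, 1254 bp for A and 1263 bp for B.

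**Figure D2:**
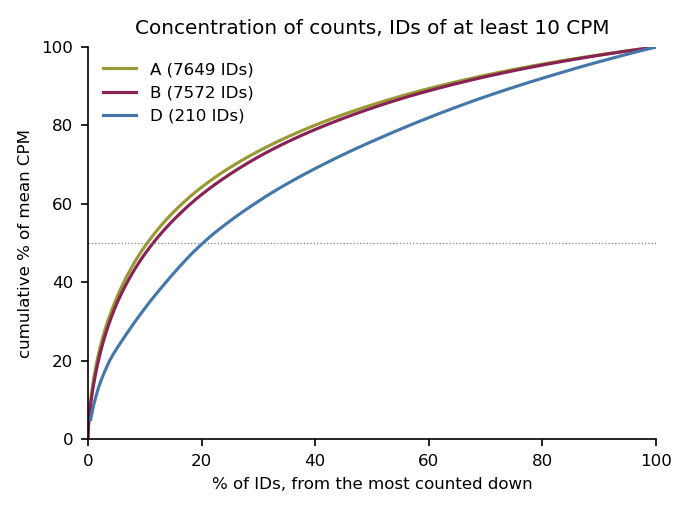
Cumulative percentage of the summed mean CPM against the percentage of IDs, from the most counted ID down, for A, B and D IDs without LC of at least 10 CPM. The dotted line marks 50%, which the D curve reaches after 20.5% of its IDs and the A and B curves after 10.4% and 11.5%.

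The most counted D ID was TraesCS2D01G442500, which alone took 5.03% of the summed CPM of the 210. The control held 307 CPM of it and the library with cadmium alone 174 CPM. At 50 µM FeCl3 it reached 266 CPM, or 324 CPM once cadmium was added, and at 200 µM 409 and 164 CPM. In the sulfate libraries it was at 208 (B50CK), 420.2 (B50Cd), 289 (B200Cd) and 410.4 CPM (200 µM without cadmium). Cadmium libraries were thus low at 0 and 200 µM FeCl3 and not at 50 µM. Per length it also led, with a mean of 818 FPKM (CPM per kilobase of gene length). Its model is 363 bp long.

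Second by length-corrected level stood TraesCS7D01G199700, a model of 264 bp, with a mean of 422 FPKM and a range of 71.0 to 169 CPM. TraesCS3D01G535700 was at 309.6 CPM in the control and 140.2 to 282 CPM elsewhere, with a mean of 156 FPKM. TraesCS2D01G080900 was at 109 to 225 CPM (93.9 FPKM) and TraesCS5D01G513400 at 59.8 to 326 CPM (114 FPKM). The most counted D ID of a library was TraesCS2D01G442500 in 7 of the 10, TraesCS3D01G535700 in the control, TraesCS2D01G080900 with cadmium alone and TraesCS7D01G551400 at 200 µM FeCl3 with cadmium. TraesCS3D01G485400 had a narrow range of 75.4 to 131 CPM (160.0 FPKM), as had TraesCS7D01G436100, at 54.6 to 91.5 CPM (178 FPKM). The remaining 3 of the 10 most counted were TraesCS3D01G039400 (mean 91.6 CPM), TraesCS1D01G303700 (89.5 CPM) and TraesCS1D01G378000 (73.3 CPM).

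Each of the 210 had a count in every library, and 88 were at 10 CPM or more in all of them. In 16 IDs fewer than 5 libraries reached 10 CPM, and in 2 of those a single library did. TraesCS7D01G551400 was at 198 CPM at 200 µM FeCl3 with cadmium and at 1.65 to 9.18 CPM in the other 9 libraries. TraesCS7D01G063900 was at 84.1 CPM at 50 µM FeCl3 without cadmium and at 1.24 to 9.39 CPM elsewhere. The means of both thus passed the limit through 1 library each. Levels varied somewhat more between libraries than those of A and B IDs: the SD of log2(CPM + 0.5) over the 10 libraries had a median of 0.59, against 0.47 for both A and B. The lower levels of the D IDs move with this difference, and their part in it was not tested. The widest SD belonged to TraesCS1D01G014500 (2.29) and TraesCS6D01G048300 (1.94), described below. The narrowest belonged to TraesCS5D01G101600 (0.19), at 17.0 to 27.2 CPM, and TraesCS1D01G415900 (0.19), at 9.57 to 15.2 CPM.

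Cadmium is a toxic metal that plant roots take up partly through carriers of iron and other nutrient metals, and the series asks how iron supply alters the response to it. A few D IDs stood at very different levels with and without cadmium. TraesCS3D01G039400 stood at 9.53 CPM without additions and at 149.8 CPM with cadmium alone, at 22.5 and 147 CPM at 50 µM FeCl3, and at 49.0 and 141 CPM at 200 µM. Its 3 levels with cadmium lay close together, while those without cadmium were ordered by the FeCl3 dose. The log2 fold was 2.79 ± 0.47 (edgeR quasi-likelihood test, adjusted p = 0.129). Among the sulfate libraries it was at 16.7 (B50CK) and 26.1 CPM (200 µM without cadmium), and at 159 (B50Cd) and 196 CPM (B200Cd).

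TraesCS1D01G014500 stood at 13.2 CPM without additions and at 81.7 CPM with cadmium alone, at 2.03 and 63.4 CPM at 50 µM FeCl3, and at 3.55 and 63.9 CPM at 200 µM. The groups did not overlap, and its fitted log2 fold was 3.98 ± 0.62 (SE, 3 pairs; edgeR quasi-likelihood test, adjusted p = 0.12). TraesCS5D01G325900 stood at 2.64, 3.08 and 7.16 CPM when cadmium was absent and at 19.4, 20.9 and 33.8 CPM when present (0, 50 and 200 µM FeCl3), a log2 fold of 2.68 ± 0.32 (edgeR adjusted p = 0.113). In the sulfate libraries coded B50Cd and B200Cd these IDs were at 163 and 211 CPM and at 49.6 and 43.4 CPM. In the other 2 sulfate libraries they were at 5.64 to 11.99 CPM and at 3.43 to 12.5 CPM.

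TraesCS6D01G048300 had 1 count in the control and 934 with cadmium alone, a ratio of levels of 659 with a 95% exact counting interval of 118 to 26063. It was at 1.87 and 8.41 CPM at 50 µM FeCl3 and at 4.70 and 44.0 CPM at 200 µM. Its 4 sulfate libraries lay between 8.36 and 21.0 CPM and the highest was the one at 200 µM without cadmium. Lower with cadmium was TraesCS5D01G336200, at 46.2, 34.2 and 23.9 CPM without and 16.0, 7.57 and 9.13 CPM with it (log2 fold -1.64 ± 0.32, edgeR adjusted p = 0.158). Its sulfate libraries were at 15.9 (B50CK), 7.81 (B50Cd), 8.29 (B200Cd) and 9.03 CPM (200 µM without cadmium). All 4, the last of them without cadmium by code and text, lay within its range with cadmium. TraesCS2D01G583100 was at 39.5, 114 and 79.4 CPM in the libraries lacking cadmium and at 21.3, 41.6 and 34.6 CPM in those given it (log2 fold -1.12 ± 0.29, edgeR adjusted p = 0.23). Its level with cadmium at 50 µM lay above that of the control, so its groups overlapped.

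**Figure D3:**
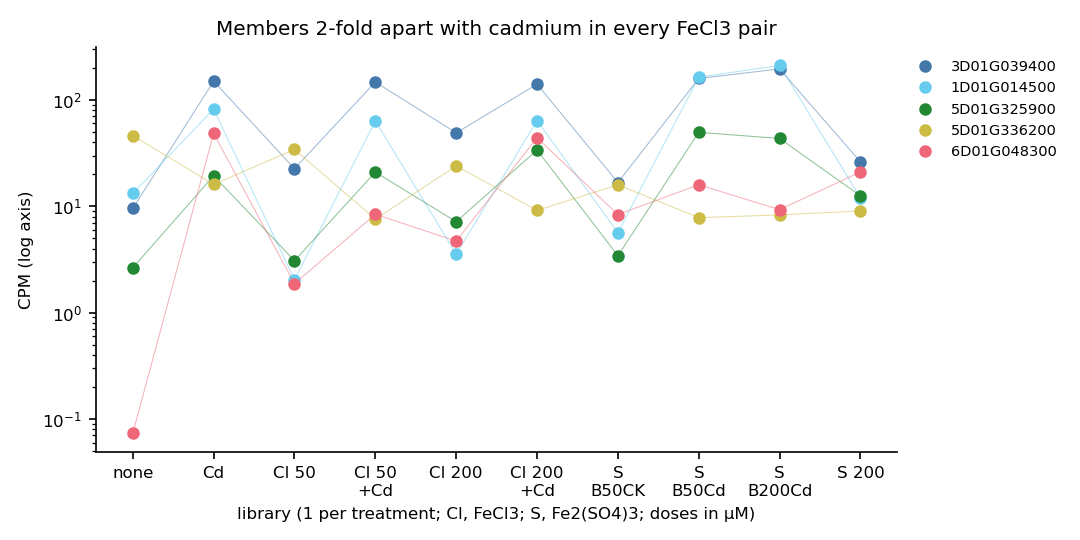
CPM on a log axis in each of the 10 libraries for the 5 D IDs that were at least 2-fold apart with cadmium, in 1 direction, in all 3 FeCl3 pairs (control included); thin lines only link the points of an ID. TraesCS3D01G039400, TraesCS1D01G014500 and TraesCS5D01G325900 were also high in the sulfate libraries coded B50Cd and B200Cd.

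At least 2-fold higher with cadmium in all 3 pairs were 4 of the 210, against 2.26% of all IDs of at least 10 CPM, and 1 was lower in all 3, against 0.728%. Those are shares of 1.90% and 0.476%, near the background. Among the 4 higher was TraesCS6D01G048300, with a median of 8.85 CPM. Its mean of 16.2 CPM passed the limit largely through 48.3 CPM with cadmium alone and 44.0 CPM at 200 µM FeCl3 with cadmium. In the pairs' libraries without cadmium, TraesCS1D01G014500 was at 2.03 to 13.2 CPM and TraesCS5D01G325900 at 2.64 to 7.16 CPM. The means of these IDs (62.0 and 19.6 CPM) thus also passed the limit largely through the libraries in which they were high. Folds here are differences of log2(CPM + 0.5), which understate the change of low IDs. Without the pair that holds the control, 9 were higher (background 4.33%) and 4 lower (2.22%). In the pair without iron, 46 were at least 2-fold higher and 38 lower (background 18.3% and 12.5%). At 50 µM FeCl3 there were 20 and 12 (7.74% and 6.78%) and at 200 µM 22 and 19 (11.8% and 8.34%). The log2 differences of the 210 had an SD of 1.38 without iron, 0.86 at 50 µM and 0.97 at 200 µM. Over all IDs of at least 10 CPM the SD followed the same order, at 1.23, 0.78 and 0.90. Of the 210, 132 (62.9%) differed in sign between pairs, as did 63.1% of all IDs of at least 10 CPM. The median over the 210 of the mean difference was -0.04, as over all IDs of at least 10 CPM (-0.04).

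In the edgeR test of the 6 libraries without sulfate none of the 210 passed an adjusted p of 0.05, and 0% of all 55236 genes tested did (smallest adjusted p = 0.113, shared by a D ID). At an unadjusted p under 0.05 there were 31 of the 210, 25 higher and 6 lower, which is 14.8% against 14.0% of the IDs of at least 10 CPM. Leaving out the pair without iron gave 40 (19.0%, against 22.3% of the IDs of at least 10 CPM). Leaving out the pair at 50 µM gave 11 (5.24% against 7.26%), and that at 200 µM gave 26 (12.4% against 9.86%). DESeq2 called 6 (5 higher, 1 lower), against 5.21% of IDs of at least 10 CPM. These were the 5 IDs 2-fold apart in every pair and TraesCS2D01G540300, which was noticed for that call. Without the pair that holds the control, edgeR called 7, all higher (3.33%), against 2.57% of the IDs of at least 10 CPM. With all 10 libraries and the sulfate ones read by their codes, edgeR called 6, against 3.32% of IDs of at least 10 CPM. Higher were TraesCS1D01G014500 (log2 fold 4.22 ± 0.45, adjusted p = 0.00642), TraesCS3D01G039400 (2.93 ± 0.34, adjusted p = 0.00712), TraesCS5D01G325900 (2.74 ± 0.34, adjusted p = 0.00866) and TraesCS2D01G154500 (1.86 ± 0.39, adjusted p = 0.0476). Lower were the neighbours TraesCS2D01G583100 (-1.23 ± 0.23) and TraesCS2D01G583200 (-1.11 ± 0.21), both with an adjusted p of 0.0342. Read by the treatment text none was called, and 0% of the IDs of at least 10 CPM were called. At an unadjusted p under 0.05 that reading gave 13 (6.19%, against 5.90% of the IDs of at least 10 CPM). By that reading the log2 fold of TraesCS1D01G014500 was 2.24, that of TraesCS5D01G325900 1.28, that of TraesCS5D01G336200 -0.87 and that of TraesCS2D01G583100 -0.51.

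Iron is an essential metal that roots take up from the soil, and its supply is one of the main regulators of metal carriers there. FeCl3 was compared with the 2 libraries that had no iron salt. TraesCS2D01G583200 stood at 11.1 CPM without additions and at 7.56 CPM with cadmium alone, at 78.3 and 25.6 CPM at 50 µM, and at 58.2 and 23.7 CPM at 200 µM. Both libraries without iron lay below all 4 with FeCl3, with log2 folds of 2.49 ± 0.39 at 50 µM (edgeR adjusted p = 0.408) and 2.02 ± 0.38 at 200 µM (edgeR adjusted p = 0.528). In the sulfate libraries it was at 14.8 to 41.4 CPM. Its neighbour in order, TraesCS2D01G583100, has a model of the same length (1026 bp). In each cadmium state it too was lower with no iron than at either FeCl3 dose.

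TraesCS3D01G265100 was at 1.54 and 6.94 CPM without iron (control, cadmium), at 13.2 and 26.4 CPM at 50 µM and at 9.96 and 15.0 CPM at 200 µM (log2 fold 2.65 ± 0.44 at 50 µM, edgeR adjusted p = 0.408). Its sulfate libraries, at 9.93 to 17.4 CPM, also lay above both libraries without iron. TraesCS2D01G313400 held 2.13 and 6.52 CPM in the libraries without iron and 11.3 to 21.9 CPM in all 8 libraries with an iron salt (log2 fold 2.09 ± 0.43 at 200 µM FeCl3, edgeR adjusted p = 0.528). For both of these IDs the control was the lowest library.

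Lower with iron was TraesCS5D01G159100, at 129 and 58.1 CPM without iron, 21.6 and 16.6 CPM at 50 µM and 34.6 and 25.04 CPM at 200 µM (log2 folds -2.03 ± 0.46 and -1.59 ± 0.45, edgeR adjusted p = 0.421 and 0.528). Without the control these folds were -1.42 and -0.95. Its sulfate libraries were at 11.2 to 49.2 CPM, all below the libraries without iron. TraesCS5D01G446300 held 99.2 and 89.4 CPM in the libraries without iron and 28.8 to 51.8 CPM with FeCl3, while the sulfate library coded B50CK stood at 91.1 CPM beside 36.3 to 37.5 CPM in the other 3 (log2 fold -1.23 ± 0.37 at 50 µM, edgeR adjusted p = 0.451). TraesCS3D01G336800 was at 24.2 and 15.5 CPM without iron, 12.2 and 8.76 CPM at 50 µM and 8.86 and 6.09 CPM at 200 µM (log2 fold -1.40 ± 0.39 at 200 µM, edgeR adjusted p = 0.528). All of its libraries with an iron salt lay below both without one.

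**Figure D4:**
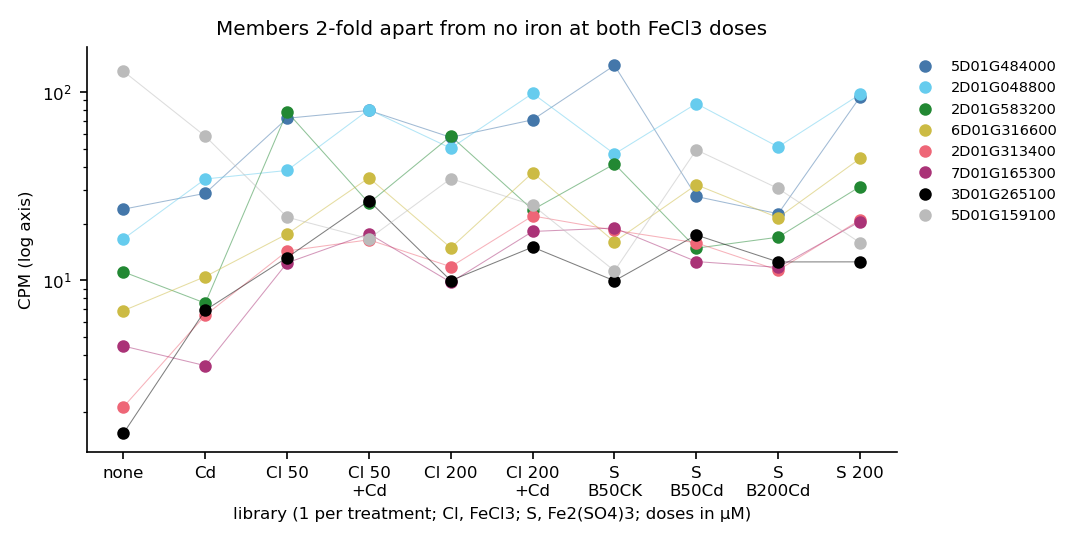
CPM on a log axis in each of the 10 libraries for the 8 D IDs at least 2-fold apart from the libraries without iron, without and with cadmium, at both FeCl3 doses; thin lines only link the points of an ID. The first 2 positions (none, Cd) had no iron salt, and TraesCS5D01G159100 is the one ID that stood higher there.

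At 50 µM FeCl3, 15 of the 210 were at least 2-fold higher than without iron in both cadmium states (7.14%, background 3.95%) and 4 lower (1.90%, background 1.46%). Among the 15 was TraesCS7D01G063900, whose mean passed the limit only through the library at 50 µM FeCl3 without cadmium (84.1 CPM). The limit was set on a mean over libraries most of which had an iron salt, and its part in these counts was not tested. At 200 µM there were 8 higher (3.81%, background 2.74%) and 2 lower (0.952%, background 1.46%). The doses share their libraries without iron, and 7 IDs were higher (background 1.74%) and 1 lower (0.682%) at both. Without cadmium alone, 46 were higher and 33 lower at 50 µM (15.2% and 9.94%) and 55 and 32 at 200 µM (20.2% and 13.5%). With the cadmium libraries alone, which leaves out the control, 41 were higher and 24 lower at 50 µM (background 11.6% for each direction) and 29 and 20 at 200 µM (10.1% and 7.51%). Scaling by TMM (edgeR's trimmed mean of M values) in place of library totals moved the median log2 difference of all IDs of at least 10 CPM by as much as 0.37, at 50 µM with cadmium. There the median of the 210 stood at 0.10 and that of all IDs at -0.23 by library totals, and at 0.47 and 0.15 by TMM. A change of scaling shifts all IDs of a library nearly alike, so it could hardly alter which median was the higher. For 200 µM with cadmium the medians were 0.02 and -0.15. With TMM the counts in both states became 18 and 3 at 50 µM (all IDs, 5.97% and 0.792%) and 10 and 4 at 200 µM (3.17% and 1.44%). The higher and lower split at 200 µM moved from 8 and 2 to 10 and 4.

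None of the 210 passed the edgeR test at either dose, nor did any gene (0% called). At an unadjusted p under 0.05 there were 40 at 50 µM (34 higher, 6 lower), which is 19.0% against 12.7% of the IDs of at least 10 CPM. At 200 µM there were 41 (27 higher, 14 lower), 19.5% against 11.3%. These counts moved widely with single libraries. At 50 µM there were 69 without the control (32.9%, against 25.2% of the IDs of at least 10 CPM) and 74 without the library of cadmium alone (35.2% against 26.1%). Leaving out the FeCl3 library without or with cadmium gave 13 (6.19% against 3.34%) and 21 (10% against 7.26%). In the same order the counts at 200 µM were 53 (25.2% against 17.8%), 82 (39.0% against 31.7%), 14 (6.67% against 4.50%) and 35 (16.7% against 11.3%). The fitted log2 fold of the 210 had a median of 0.20 at 50 µM and 0.19 at 200 µM, against 0.06 and -0.02 over the IDs of at least 10 CPM. Without the control these medians were 0.48 and 0.35, against 0.15 and 0.12. These differences between the D IDs and the rest were not tested. DESeq2 called 8 at 50 µM (7 higher, 1 lower; background 2.97%) and 2 at 200 µM, both higher (1.31%). Without the control, edgeR called 15 at 50 µM (7.14%, background 5.25%) and 3 at 200 µM (1.43%, background 0.451%), all higher. Leaving out the library of cadmium alone gave 23 (13 higher, 10 lower; 10.95%, background 6.77%) and 36 (16 higher, 20 lower; 17.1%, background 10.4%). In those fits a single library stood for no iron, and its spread was taken to equal that of the rest.

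Between the FeCl3 doses, 2 D IDs were at least 2-fold higher at 200 than at 50 µM in both cadmium states (background 0.191%) and 1 was lower (0.381%), named here because they were so few. TraesCS6D01G048300 was at 1.87 and 8.41 CPM at 50 µM and at 4.70 and 44.0 CPM at 200 µM. TraesCS3D01G005500 went from 4.23 to 17.1 CPM without and from 5.39 to 15.3 CPM with cadmium. Its mean of 10.1 CPM lay just past the limit and rested in part on these libraries at 200 µM. TraesCS7D01G314200 went from 16.4 to 2.11 and from 12.1 to 5.11 CPM, and was at 60.4 CPM in the control. Its mean of 13.3 CPM (median 8.96) passed the limit largely through the control. With TMM 1 was higher and 2 were lower (all IDs of at least 10 CPM, 0.0636% and 0.751%).

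Each salt had 4 libraries. Doses count the salt, and Fe2(SO4)3 carries more iron per unit, so the form of the salt and the amount of iron cannot be told apart. TraesCS7D01G309400 was at 28.2 to 36.4 CPM in the FeCl3 libraries and 49.6 to 73.4 CPM in the Fe2(SO4)3 ones (log2 fold 0.85 ± 0.24). Without iron it reached 151 CPM (control) and 14.8 CPM (cadmium alone), so both salts lay between the libraries without iron. TraesCS5D01G087500 was at 36.0 to 53.8 and 56.8 to 82.7 CPM (log2 fold 0.48 ± 0.23). Lower with sulfate were TraesCS5D01G516100, with a range of 10.4 to 19.0 for FeCl3 and 6.29 to 9.57 CPM for Fe2(SO4)3 (log2 fold -0.82 ± 0.28), and TraesCS1D01G073100, with 21.5 to 27.1 and 8.69 to 20.2 CPM (log2 fold -0.75 ± 0.29). All 4 had an edgeR adjusted p of 0.999.

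The salts did not overlap for 4 D IDs higher and 2 lower with sulfate, which are 1.90% and 0.952%, against 0.820% and 0.670% of all IDs of at least 10 CPM. No D ID and no gene was called by edgeR (0%), and DESeq2 called none of the 210 (background 0.0289%). At an unadjusted p under 0.05 edgeR had 13 (4 higher, 9 lower), which is 6.19% against 3.00% of the IDs of at least 10 CPM. The difference was not tested. Leaving out 1 library gave 7 to 31, the highest without the sulfate library coded B50CK (14.8% against 10.4%) and the lowest without the one coded B200Cd or without 50 µM FeCl3 alone.

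Where the patterns of the D IDs recurred among the A and B IDs was described by the Pearson correlation of log2(CPM + 0.5) over the 10 libraries. For each D ID the closest of 15221 A and B IDs of at least 10 CPM was taken. All values share the same libraries and each is the best of many, so even the lowest was 0.82 (median 0.965), and no p is given. The closest ID lay on the matching chromosome number for 54 of the 210 (25.7%), while 14.7% of the candidates did on average. For A IDs matched in the same way to 7572 B IDs the share was 18.7%, and for the D IDs matched to B alone it was 23.8%. By Spearman's rho in place of Pearson's r it held for 35 D IDs (16.7%) and 16.3% of the A IDs, so the D share then stood near that of the candidates. With ranks of 10 libraries, 86 of the 210 had several equally close IDs, of which 1 was taken. A stricter count, chosen after the values had been seen, asked also for a similar place in the ID order (within 5% of the chromosome's numbers). It held for 20 D IDs (9.52%), against 1.28% of the candidates, 5.39% of A IDs matched to B, and 8.10% of D IDs matched to B. By Spearman's rho it held for 11 D IDs (5.24%) and 3.31% of A IDs matched to B.

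**Figure D5:**
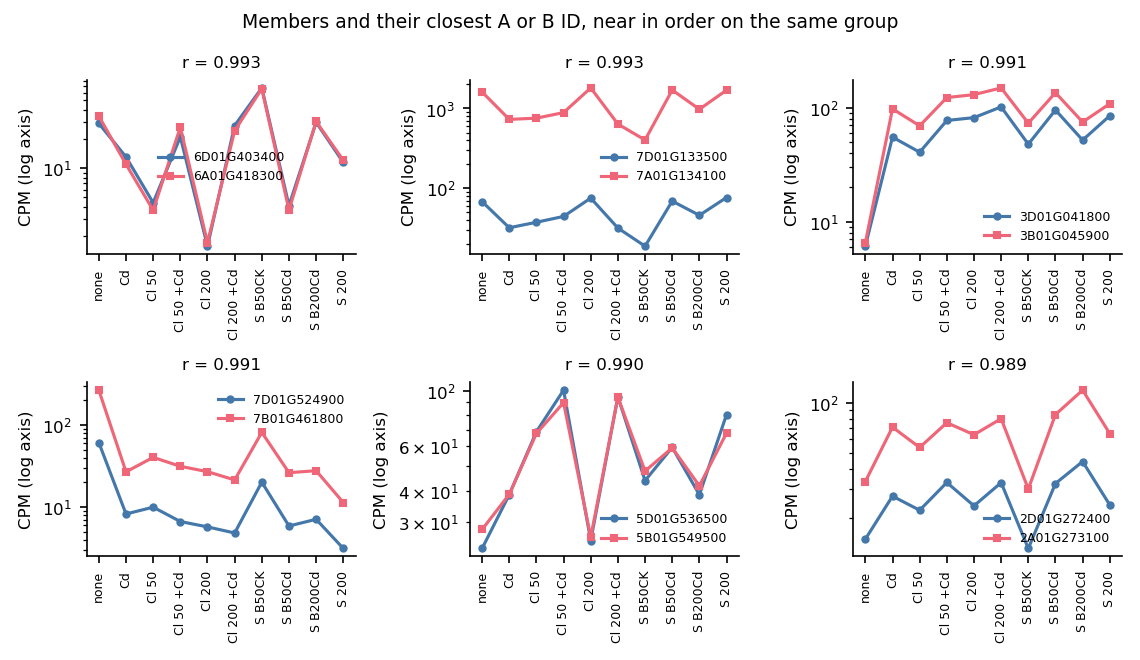
CPM on a log axis in the 10 libraries for 6 D IDs (blue) and their closest A or B ID (red), those with the highest r among the 20 near in order on the same chromosome number; lines only link points. The 2 curves ran in parallel, at the same height in the panels of TraesCS6D01G403400 and TraesCS5D01G536500 and far apart in that of TraesCS7D01G133500.

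In these 20 pairs, from which the following were picked by their r or their ratio after the values had been seen, the levels per length ranged from alike to far apart. TraesCS6D01G403400 and TraesCS6A01G418300 (r = 0.993) were at 28.9 and 34.4 CPM in the control, 1.57 and 1.70 CPM at 200 µM FeCl3 without cadmium, and 67.2 and 65.9 CPM in the sulfate library coded B50CK. The FPKM of the D ID was 0.813 to 1.22 times that of the A ID in every library. TraesCS5D01G536500 and TraesCS5B01G549500 (r = 0.99) were likewise at 23.5 and 28.0 CPM in the control, 25.3 and 26.1 CPM at 200 µM FeCl3 and 94.6 and 94.3 CPM when cadmium was added to that, with an FPKM ratio of 0.844 to 1.19.

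Other D IDs followed an A or B ID at a small part of its level. TraesCS7D01G133500 (r = 0.993) had 0.0424 to 0.0523 times the FPKM of TraesCS7A01G134100, whose level was 403 to 1808 CPM. TraesCS2D01G313400, the ID low in both libraries without iron, had 0.0219 to 0.0344 times that of TraesCS2A01G315100 (r = 0.978), which held 90.6 CPM in the control, 296 CPM under cadmium alone and 341 to 684 CPM in the libraries with iron. TraesCS5D01G159100, which was highest without iron, had 0.164 to 0.305 times the FPKM of TraesCS5B01G152600. TraesCS1D01G303700, one of the 10 most counted, had 0.235 to 0.332 times that of TraesCS1B01G314700, and both models are 2895 bp long.

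Other D IDs stood above its closest A or B ID. The cadmium-following TraesCS3D01G039400 had 1.29 to 2.52 times the FPKM of TraesCS3A01G040800 (r = 0.983), which was at 6.67 and 128 CPM in the control and with cadmium alone. TraesCS2D01G048800 had 2.72 to 4.27 times that of TraesCS2A01G049700. In 14 of the 20 pairs the A or B ID had the higher mean FPKM. Over all 20 its mean FPKM had a median of 2.12 times that of the D ID. For the other IDs of the cadmium comparison the closest ID was not near in order. That of TraesCS1D01G014500 was TraesCS1B01G456900 (r = 0.992), on the matching chromosome number but at the other end of the order. That of the most counted D ID, TraesCS2D01G442500, was TraesCS4A01G060300 with r = 0.888, and its FPKM was 55.0 to 109 times higher than that of the A ID.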

How the data were processed

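Root RNA was extracted with Trizol and made into libraries with an Illumina TruSeq kit, per the labels' protocols. The submitters' processing notes list TopHat2 2.0.12 with Bowtie2 2.0.6. A counting program, genome build or strand setting is not given in the sources. The authors deposited whole-number counts per gene ID and FPKM for the same IDs. Gene lengths are CPM divided by FPKM, which gave the same length in every library (largest difference 0 bp).

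The quasi-likelihood test of edgeR 4.0.16 (R 4.3.3, TMM, filterByExpr) was run on the whole count table, with Benjamini-Hochberg adjustment at 0.05. Cadmium and FeCl3 effects came from 1 additive fit of 6 libraries (2 residual degrees of freedom), in which the cadmium pairs at different supplies serve as replication. The salts were compared as 4 against 4. Nothing in the labels says that libraries are separate plants, so p-values measure only the spread between these libraries. In the additive fit that spread includes any change of the cadmium response with iron supply, which cannot be told apart from other differences between libraries. Each SE was derived from the fold and its F statistic. DESeq2 1.42.0 and limma 3.58.1 on log2(FPKM + 0.5) were alternatives. The edgeR fits were run on simulated counts with an equal spread for all genes, to check that the set folds were recovered. The rate of false calls was not judged from this. Intervals cover counting error only, and 3 counts equal 0.155 to 0.22 CPM.

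Named IDs are the 10 most counted, those nearest the limit, in each comparison the 2 per direction with the smallest p that moved 1 way throughout, the 2 widest and narrowest SDs and the first neighbouring pairs; others are stated to be picked after seeing values. The members and lists were chosen with earlier results of these data known.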

Additional observations from a re-analysis of the deposited data

Results flagged for a closer look

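TraesCS1D01G303700 was at 174.7 CPM with 200 µM Fe2(SO4)3 and no cadmium, far from the 73.5 to 89.5 CPM of the other 3 sulfate libraries. It was 1 of 38 groups of 4 libraries of a salt examined in this way, of which chance gives 1.9.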

How the results depend on the processing

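As tested, 0 D IDs were called, so alternatives can add calls but not remove them; the cause was not tested. With no low-count filter edgeR called 11 of the 210 (5.24%) each for cadmium, 50 µM and 200 µM FeCl3, against 6.82%, 4.24% and 2.91% of the IDs of at least 10 CPM, and DESeq2 called 6, 8 and 2. For cadmium, limma on FPKM called 1 (0.476%, against 0.341%), and all 10 libraries with sulfate read by code gave 6. Leaving out a pair gave 0 to 7 for cadmium (7 without the pair that holds the control), and leaving out a library gave 0 to 23 at 50 µM, 0 to 36 at 200 µM and 0 throughout for the salts. RLE size factors and the other alternatives added none. A mean of at least 5 or 20 CPM in place of 10 left 395 or 91 IDs in place of 210. IDs higher with cadmium in every pair were 4 at 2-fold, 11 at 1.5-fold and 2 at 4-fold. Those lower were 1, 3 and 0. The share of all IDs was counted at 2-fold alone, so the counts at 1.5-fold and 4-fold have no background. Leaving out a pair gave 5 to 9 higher and 3 to 5 lower. A background was counted only without the pair that holds the control (9 higher against 4.33%, 4 lower against 2.22%). With 5 pairs there were 0 lower by either reading of the sulfate labels, and 0 higher by the text. The median cadmium difference was -0.04 and became 0.03 with TMM. The 14 named IDs kept their direction in all 156 values. They had been picked for moving 1 way throughout in these same libraries, so a reversal was unlikely from the start and nothing is concluded from its absence. The cadmium comparison was matched by iron supply and the FeCl3 comparisons by cadmium state. Pairing by replicate was not possible, because the labels number no replicates. At these depths 3 counts equal 0.155 to 0.22 CPM. By Spearman's rho 35 of the closest A or B IDs lay on the matching chromosome number, against 54 by Pearson's r (16.7% and 25.7%), and 11 against 20 were also near in order.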
